A study of Mus musculus with 16 samples.

Results

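Mouse fallopian tubes were held for 20 min in medium with progesterone (100 nmol/L, dissolved in ethanol at 0.01%) or, as controls, with the same ethanol alone. These were 8 of the 16 samples of the experiment, 4 with progesterone and 4 controls, chosen by their labelled treatment and time, and the other 8 samples were exposed for 2 h. The tubes came from immature female C57BL/6N mice aged 3.5 to 5 weeks that had received no hormones. They were opened lengthwise, cut into pieces and held in G-MOPS, a handling medium for oocytes and embryos, so progesterone reached muscle and epithelium outside the animal. Each sample pooled 6 tubes, cleared of broad ligament, fat and vessels. A control and a progesterone sample shared a code, and the 4 pairs, 27n, 26n, 12n and 22ob, are given in this order below. RNA levels were read on BeadChip arrays (Illumina MouseRef-8 v2), and all levels are log2 values of the quantile-normalized signal intensity of a probe. A difference is the log2 level with progesterone less that of the control of the same pair. A 95% interval is that of limma over the 4 pairs, and a probe was called detected on an array at a detection p-value under 0.05.

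Progesterone acts through PGR, a nuclear receptor that chaperones hold ready for hormone and that, once bound, acts on DNA with coregulators and switches its target genes over the following hours. It can also act within minutes through PGR outside the nucleus or through membrane receptors, the PAQR proteins and PGRMC1, which alter second messengers and kinases. In the fallopian tube it slows the beat of cilia and relaxes the muscle, and both forces help to carry the oocyte to the uterus. The comparison at 20 min asks whether messenger RNA levels had already moved by the time the beat of the cilia slows.

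By limma no gene was called changed after 20 min, and paired SAM called 1 or 2 probes by the scale used. With limma and the pair as a block, 0 of the 16848 probes (0%) reached the threshold of 0.20 for the p adjusted by Benjamini-Hochberg, and the lowest adjusted p was 0.948. Before adjustment 847 probes had p under 0.05, of which 396 were higher and 451 lower with progesterone. Paired SAM, the kind of test the study used, called 1 probe on log2 values, LOC100038882, and 2 others on linear signals, Gpsn2 and Rpl28, both named after their values were seen. The study ran its SAM after removing probes without a current gene annotation, and it reported no significant change at 20 min. That removal was not made for the SAM here. Of all 16848 mean differences, the highest was 0.38 (Serpinb11) and the lowest -0.43 (a probe of Clk4), and 95% of the differences lay between -0.16 and 0.16.

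**Figure D1:**
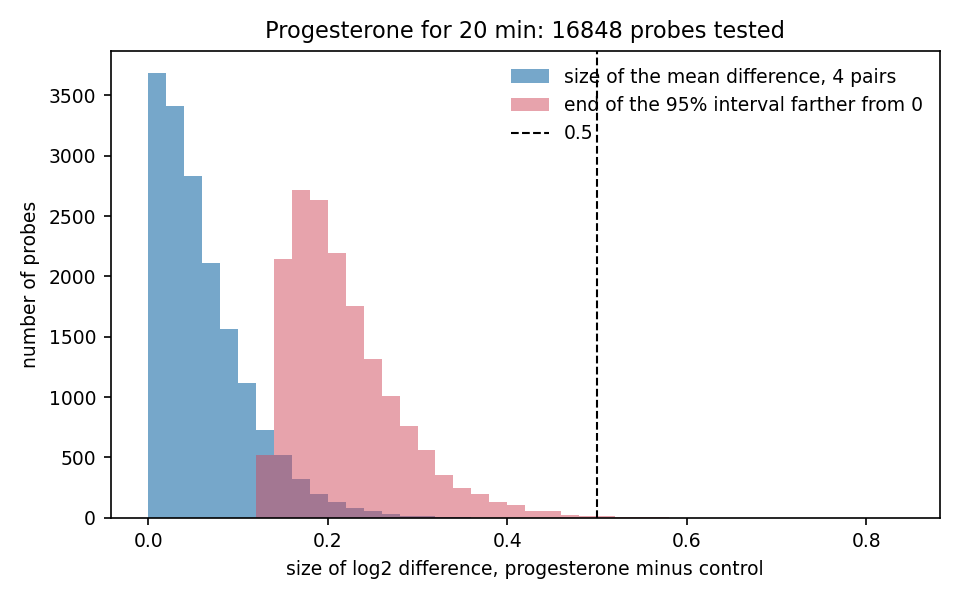
Number of probes (vertical axis) by the size of the log2 difference between progesterone and control at 20 min (horizontal axis), for the mean of 4 pairs in blue and for the end of the 95% interval that lies farther from 0 in red. The dashed line marks 0.5, and 40 of the 16848 red values lie beyond it.

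The 95% interval of 16808 probes (99.8%) lay within 0.5 of 0 on the log2 scale, and the median half-width of the interval was 0.15. No interval reached 1. These bounds hold for the signals as deposited, without background subtraction, which draws the differences of dim probes toward 0. After a background correction (normexp) the share within 0.5 was 81.1%, the median half-width was 0.28, and the mean differences reached 0.68 and -0.72, again with 0 probes called. The half-width is that of a single test: the 847 probes with an interval on 1 side of 0 were not called once p was adjusted over all probes.

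The pairs differed from each other more than the treatments did. Of the variance summed over the probes, 66.1% lay between pairs, 8.60% between progesterone and control, and 25.3% was left over. Per degree of freedom, the mean square of progesterone (0.0128) was close to that of the remainder (0.0126). The spread between pairs was wide for Lpl, lipoprotein lipase, which is also among the probes of smallest p given below. Its controls had 10.14, 10.53, 8.99 and 9.03, and its progesterone samples 10.47, 10.75, 9.19 and 9.40. Pairs 27n and 26n thus stood above the other pairs in both arms, while Lpl was higher with progesterone in each pair. The differences in 1 pair were almost unrelated to those in another across probes (correlations of -0.063 to 0.046, a description over probes of the same arrays). Pairs 27n and 26n varied most, with SDs of 0.18 and 0.18 over the probes against 0.14 and 0.13 in 12n and 22ob. Leaving out each pair in turn again gave 0 called probes, with lowest adjusted p values from 0.563 (without 26n) to 0.998 (without 22ob) by limma.

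Among the receptors, the message of PGR itself was detected on all 8 arrays. Pgr had 7.44, 7.95, 7.68 and 7.93 in the controls and 7.50, 7.66, 7.76 and 8.03 with progesterone. The 2 groups overlapped, with progesterone higher in 3 pairs and lower in 26n, and the mean difference was -0.01 (95% interval -0.18 to 0.16). Paqr7, the membrane progesterone receptor alpha, had 8.995, 8.72, 8.78 and 8.41 in the controls and 9.10, 8.95, 8.85 and 8.64 with progesterone. It was higher in each pair although the groups overlapped, by 0.16 (standard error 0.06, interval 0.02 to 0.30, adjusted p = 0.948 from limma). Pgrmc1, a membrane-associated progesterone-binding protein, had 8.54, 8.41, 8.84 and 8.69 in the controls and 8.68, 8.76, 8.82 and 8.76 with progesterone, a mean difference of 0.14 (-0.02 to 0.29) to which pair 26n gave the most.

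The estrogen receptor Esr1 differed by 0.05 (-0.10 to 0.20). Nr3c1, the glucocorticoid receptor, was detected on only 1 of the 8 arrays and Paqr8 on 0, so for these the arrays could show little, and Pgrmc2 and Paqr5 were not analysed here. Of the 8 receptor genes tested from a list of 14, 1 was higher in 4 of 4 pairs (Paqr7) and 0 lower, while over all 12465 genes, 1 probe each, 6.56% were higher and 6.44% lower in 4 of 4 pairs. The list's median difference was -0.01, beside 0.0004 over all probes.

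The chaperones that hold PGR ready and the coregulators it works with at DNA were also near 0. Of 15 chaperones and coregulators tested, 0 were higher and 1 was lower in 4 of 4 pairs, and the median was 0.03. That gene was Fkbp4, the immunophilin FKBP52 that keeps PGR ready for hormone, with 12.51, 12.80, 12.59 and 12.83 in the controls and 12.38, 12.79, 12.49 and 12.43 with progesterone. The difference of -0.16 (-0.32 to 0.00) came mostly from pair 22ob, at -0.40, and was not past the test (adjusted p = 0.948 from limma). Hsp90ab1, the constitutive HSP90 chaperone, has 3 tested probes. The probe ILMN_1233733 had 10.51, 10.57, 10.58 and 10.64 in the controls and 10.90, 11.23, 10.88 and 10.80 with progesterone, without overlap and higher by 0.37 (0.19 to 0.55). The other probes of the gene, 1 of them brighter, were higher by 0.07 and 0.08 in 2 of 4 pairs each.

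Target genes of steroid receptors were tested next. Nuclear steroid receptors of this family bind a palindrome of the half-sites AGAACA and TGTTCT with 3 bases between them, an element that the progesterone and glucocorticoid receptors share. Among 32851 mouse promoters in RefSeq (GRCm38.p6), each 250 bases before and 50 after a start and searched on both strands, 3 (0.00913%) held the whole palindrome and 19% held a half-site, which is also part of the palindrome. All 16 tested genes of a list of steroid-responsive genes had a promoter in that table, and 3 of them (Bcl6, Sgk1 and Tsc22d3) held a half-site, 1 of them the palindrome. That was Sgk1, a kinase that steroid hormones induce in many tissues. The 250 bases before its start, at chr10:21993640-21993889 on the plus strand, are printed with the palindrome in capitals, because Sgk1 is the only tested gene of the list with the whole element in this window.

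Sgk1: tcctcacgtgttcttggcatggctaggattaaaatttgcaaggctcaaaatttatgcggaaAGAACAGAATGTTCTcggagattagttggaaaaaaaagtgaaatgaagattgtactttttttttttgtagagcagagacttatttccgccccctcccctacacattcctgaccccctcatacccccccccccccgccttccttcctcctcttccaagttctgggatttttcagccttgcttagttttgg

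The palindrome begins 189 bases before the start. Sgk1 was bright, with 11.47, 11.38, 11.30 and 11.69 in the controls and 11.44, 11.25, 11.33 and 11.60 with progesterone. The groups overlapped and the difference was -0.05 (-0.19 to 0.08), higher in pair 12n alone. A match of letters does not show binding.

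In the list of 16 steroid-responsive genes, 8 were above and 8 below 0, the median was -0.002, and 2 were higher and 0 lower in 4 of 4 pairs. At an unadjusted p under 0.05, 2 were higher and 0 lower, beside 2.58% higher and 2.7% lower among all 12465 genes. Klf9, a zinc-finger transcription factor induced by steroid and thyroid hormones, had 10.62, 10.78, 10.46 and 11.16 in the controls and 10.62, 11.10, 10.90 and 11.48 with progesterone. It was higher in 4 of 4 pairs but by only 0.01 in 27n, and the mean was 0.27 (standard error 0.08, 0.10 to 0.45, adjusted p = 0.948 from limma). Lcn2, the iron-binding lipocalin, was higher by 0.21 (0.02 to 0.39), with 0.02, 0.43, 0.02 and 0.37 in the pairs. Fkbp5, whose product is induced by progestins and glucocorticoids and restrains their receptors, was lower by 0.11 (-0.27 to 0.05), and Tsc22d3, the glucocorticoid-induced leucine zipper, by 0.16 (-0.36 to 0.04).

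Genes known as progesterone targets of uterus and ovary were near 0 as well. Of 24 tested, 0 were higher and 1 lower in 4 of 4 pairs, 15 were above 0, and the median was 0.02. Adamts1, a protease that the ovary needs for ovulation, was higher by 0.17 (0.02 to 0.33), with 0.23, -0.01, 0.31 and 0.17 in the pairs. Of this list's other genes Pparg differed by -0.15, Ihh (Indian hedgehog) by -0.12 and Greb1 by 0.07.

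**Figure D2:**
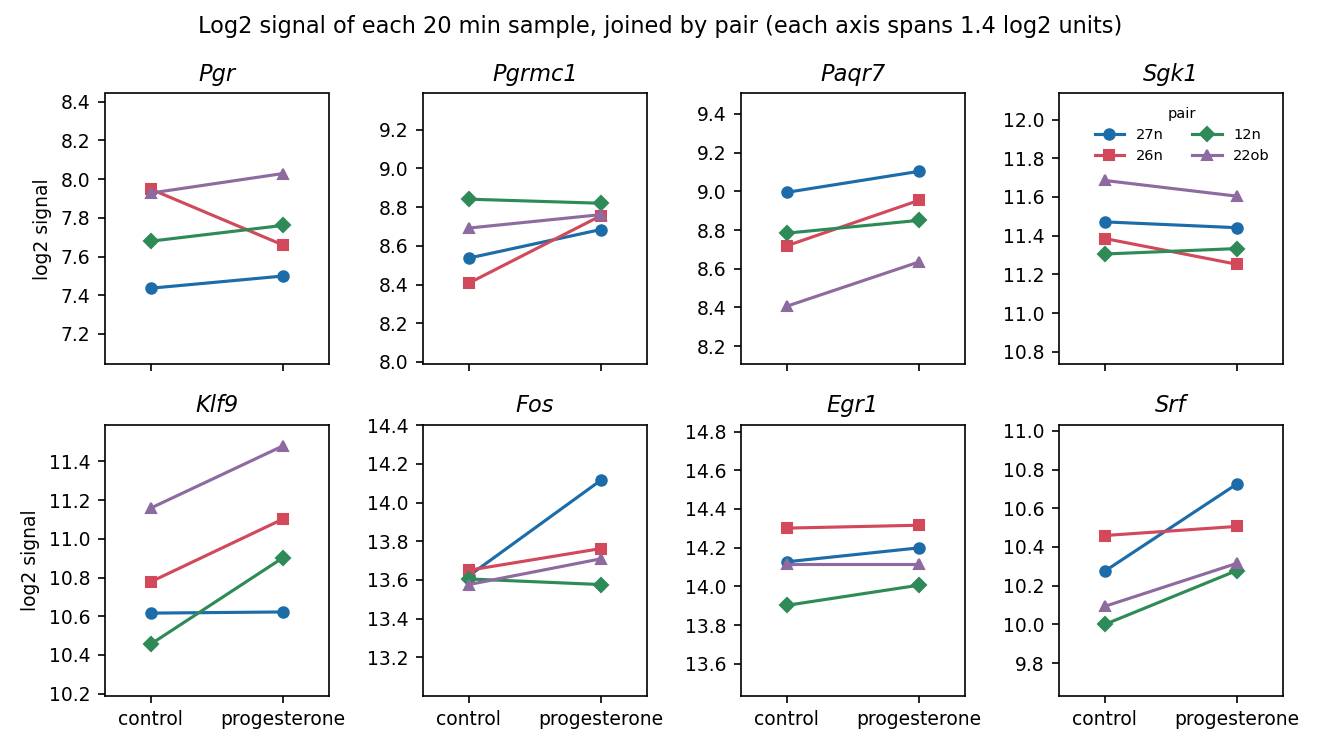
Log2 signal (vertical axes) of 8 genes with vehicle and with progesterone for 20 min, with a line for each pair, coloured by its code. The lines of Pgr and Sgk1 run both up and down, and those of Paqr7, Klf9 and Srf run up in 4 pairs.

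Immediate early genes encode transcription factors and feedback proteins whose RNA can be induced within minutes, so they are the group in which a difference could appear soonest. Many were bright in both arms. Fos had 13.62, 13.65, 13.61 and 13.58 in the controls and 14.12, 13.76, 13.58 and 13.71 with progesterone, higher in 3 pairs and most of all in 27n. Its mean difference was 0.18 (-0.01 to 0.36, adjusted p = 0.948 from limma), and the difference within pair 27n was 0.49. Egr1, a zinc-finger factor induced by growth factors, had 14.13, 14.30, 13.90 and 14.12 in the controls and 14.20, 14.32, 14.01 and 14.12 with progesterone, a difference of 0.05 (-0.08 to 0.18). Levels this high are shared between arrays by the quantile normalization, which holds the brightest ranks to the same values. With median centring in its place, the difference of Egr1 was -0.01. Jun differed by 0.10 (-0.09 to 0.29).

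The gene of this list with the smallest p was Srf, the serum response factor that switches on Fos and Egr1 through the CArG box. Srf had 10.28, 10.46, 9.9995 and 10.09 in the controls and 10.72, 10.51, 10.28 and 10.31 with progesterone. It was higher in each pair, by 0.25 (standard error 0.07, 0.09 to 0.41, adjusted p = 0.948 from limma), with overlapping groups. Srf has CArG boxes in its own promoter, an element that 1.63% of the 32851 promoters hold on either strand. The 250 bases before its start, at chr17:46556163-46556412 on the minus strand of GRCm38.p6, are printed with both boxes in capitals, because Srf had the smallest p of this list and its product binds this element.

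Srf: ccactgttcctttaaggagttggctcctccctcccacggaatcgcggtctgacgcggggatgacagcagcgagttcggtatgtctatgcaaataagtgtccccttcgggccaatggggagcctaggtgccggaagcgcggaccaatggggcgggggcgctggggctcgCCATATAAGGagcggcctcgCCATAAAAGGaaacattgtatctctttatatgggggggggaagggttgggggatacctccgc

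The boxes begin 82 and 62 bases before the start. Over the 41 immediate early genes tested, 18 were above 0, 2 were higher in 4 of 4 pairs (Srf and Ctgf, connective tissue growth factor, at 0.18) and 3 lower (Egr3, Egr4 and Btg2, the last detected on 0 of the 8 arrays), with a median of -0.002. The number above 0 was 30, 18, 22 and 9 in the pairs, so the group leaned up in 27n and down in 22ob. The highest of the 41 differences was 0.25 and the lowest -0.13. Nr4a1 was detected on 0 of the 8 arrays.

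Among genes of the routes of rapid signalling, 0 were called changed by limma, and a shift of a list as a whole was not tested. Of 21 genes of kinase signalling and its feedback, 1 was higher and 1 lower in 4 of 4 pairs, and the median was 0.02. The gene with the smallest p was Spred1, an inhibitor of the Ras and MAP kinase route, with 9.21, 9.41, 9.43 and 9.34 in the controls and 9.55, 9.46, 9.65 and 9.56 with progesterone. Its groups did not overlap and it was higher by 0.21 (0.06 to 0.35, adjusted p = 0.948 from limma), where 1.64% of all 16848 probes did not overlap between groups. Of 23 genes of cyclic nucleotide and calcium signalling, 3 were higher and 1 lower in 4 of 4 pairs, with a median of 0.05. In this list 16 were above 0, and the medians by pair were 0.01, 0.03, 0.03 and 0.01. Itpr1, the inositol trisphosphate receptor that releases stored calcium, was higher by 0.17 (standard error 0.08), with 0.37, 0.28, 0.05 and -0.02 in the pairs.

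Mediators of tubal contraction were measured as ligands, enzymes and receptors. The 7 genes of the endothelin system had a median of 0.05, and 0 were higher and 0 lower in 4 of 4 pairs. Edn1, endothelin 1, had 9.44, 9.36, 9.61 and 9.86 in the controls and 9.57, 9.26, 9.75 and 9.89 with progesterone, which overlap. For its receptor Ednra the pairs went apart, with differences of 0.19, -0.73, 0.36 and 0.54, so its interval (-0.28 to 0.46) was wide and a difference within it was not detectable. Of 15 prostaglandin genes, 0 were higher and 1 lower in 4 of 4 pairs, with a median of 0.02, and Hpgd, which degrades prostaglandins, was higher by 0.15 in 3 of 4 pairs. Ptgs2, the inducible cyclooxygenase, was detected on 0 of the 8 arrays. The 8 adrenergic, cholinergic and vasopressin receptors tested had differences between -0.08 and 0.06, and 3 of the 13 listed were detected on all 8 arrays.

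In the muscle, Myh11, the smooth muscle myosin heavy chain, had 12.57, 12.47, 11.33 and 11.93 in the controls and 12.68, 12.55, 11.58 and 12.32 with progesterone. It was higher in each pair, by 0.21 (0.06 to 0.36, adjusted p = 0.948 from limma), while the controls alone spanned more than 1 log2 unit. Acta2, the smooth muscle actin, differed by -0.05 (-0.18 to 0.08), or by -0.16 with median centring in place of quantile normalization, and its 3 other probes, less bright, were higher by 0.06 to 0.20. Of 20 contraction genes tested, 1 was higher and 0 lower in 4 of 4 pairs, 14 were above 0, and the median was 0.05 (0.10 without pair 26n and 0.007 without pair 12n).

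Cilia genes leaned up in 26n and 22ob and not in 27n and 12n, and most of all in 26n. The 23 motile cilia genes tested, which build the axoneme and its dynein motors, had a median difference of 0.11, and 19 were above 0. By pair the medians were -0.01, 0.37, -0.03 and 0.14, with 11, 19, 8 and 19 of the 23 above 0, and without pair 26n the median was 0.02. Tekt1, a tektin of the axoneme, had 11.22, 10.99, 11.26 and 10.84 in the controls and 11.31, 11.74, 11.22 and 11.00 with progesterone, a difference of 0.75 in 26n against -0.04 to 0.16 in the others. The summed linear signal of the 23 genes was 43201, 32245, 44478 and 31914 in the controls and 39596, 43739, 43167 and 34949 with progesterone, so the control of 26n was low, like both samples of 22ob.

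Only Dnahc5 (an outer dynein arm heavy chain) and Ccdc40 were higher in 4 of 4 pairs among these, and 0 were lower. Dnahc5 had 7.33, 7.35, 7.61 and 7.50 in the controls and 7.70, 7.64, 7.73 and 7.67 with progesterone, without overlap, and was higher by 0.24 (0.10 to 0.38, adjusted p = 0.948 from limma). It was dim, and its difference was 0.51 after background correction. Foxj1, the master regulator of motile cilia, differed by 0.05 (-0.10 to 0.20). In bulk tissue, fewer cells of a type and less RNA per cell cannot be told apart.

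Other cell types moved with the cilia genes in pair 26n. All 5 tested markers of mesothelium, the outer lining of the tube, were above 0 there with a median of 0.32, and their summed signal was 1454 in the control and 1934 with progesterone. In pair 12n, 0 of the 5 were above 0 and the median was -0.32 (2049 and 1638). Msln, mesothelin, had 8.20, 7.72, 8.48 and 8.09 in the controls and 8.14, 8.22, 8.13 and 8.06 with progesterone, so the controls of 26n and 12n were the lowest and highest of the 8 samples. The 8 stroma markers ran the other way in 26n, with medians of 0.15, -0.18, 0.19 and 0.32, and their summed signal ranged from 16893 to 27294 in the controls and from 18996 to 25996 with progesterone. The stroma markers were detected on all 8 arrays, and so were 3 of the mesothelium markers (Msln, Upk3b and Upk1b), with Bnc1 on 7 and Lrrn4 on 4. Their part in the cilia difference was not tested.

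**Figure D3:**
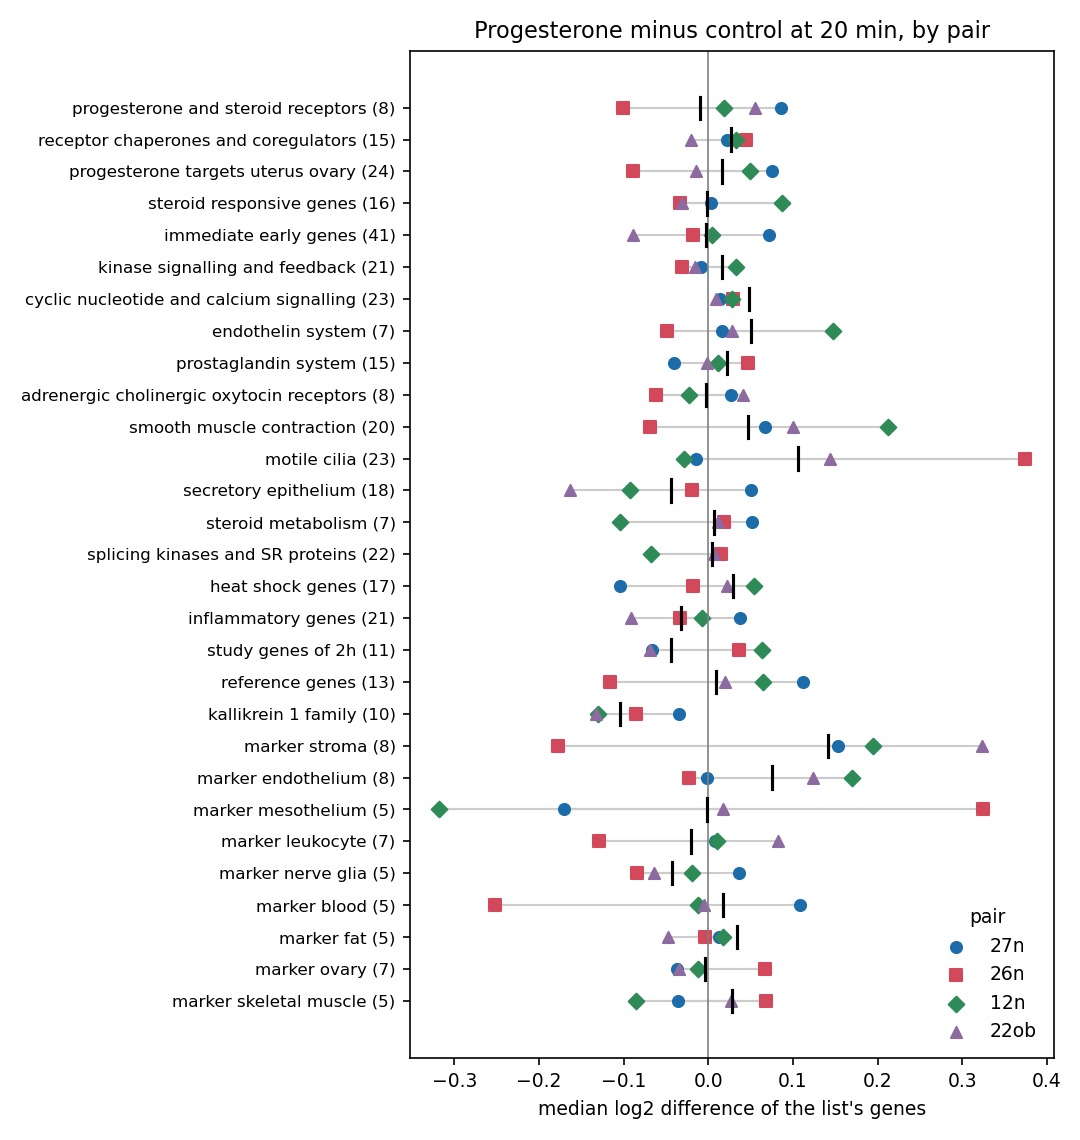
Median log2 difference between progesterone and control over the tested genes of each of 29 lists (number of genes in brackets), as a coloured point for each pair and a black bar for the median of the genes' means over 4 pairs. Pair 26n lies far right for motile cilia (0.37) and mesothelium (0.32) and left for stroma (-0.18), and only the kallikrein 1 family has its 4 points on 1 side of 0 by more than 0.03.

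Of the secretory epithelium, Ovgp1, the oviductal glycoprotein and the tube's own product, was among the brightest probes, at 14.74 to 15.003 in the controls and 14.80 to 14.96 with progesterone. Its difference was 0.03 (-0.14 to 0.19). Of 18 secretory and epithelial genes tested, 1 was higher and 2 were lower in 4 of 4 pairs, with a median of -0.04. Pax8, a transcription factor of secretory cells, was higher by 0.23 (0.09 to 0.37), with 0.30, 0.30, 0.25 and 0.07 in the pairs. Car2, a carbonic anhydrase, was lower by 0.22 (-0.36 to -0.08), and Krt19, an epithelial keratin, had 10.97, 10.87, 10.86 and 10.83 in the controls and 10.69, 10.70, 10.77 and 10.63 with progesterone. The groups of Krt19 did not overlap, and it was lower by 0.19 (-0.32 to -0.05), with an adjusted p of 0.948 from limma as for Pax8 and Car2.

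The kallikrein 1 family, secreted serine proteases encoded side by side on chromosome 7, had a larger share of genes of 1 sign than the other lists. It was listed because Klk1b27 was already known to be among the probes with the smallest p, so its count is no independent result. Klk1b27 had 9.35, 9.90, 10.04 and 10.28 in the controls and 8.67, 9.51, 9.80 and 9.97 with progesterone. It was lower in each pair, with overlapping groups, by 0.40 (standard error 0.08, -0.57 to -0.23, adjusted p = 0.948 from limma), and its second probe was lower by 0.23 in 3 of 4 pairs. Klk1, the tissue kallikrein, was lower by 0.18 (-0.31 to -0.05), with -0.19, -0.17, -0.13 and -0.25 in the pairs. Of 10 members tested, 9 were below 0, 4 were lower in 4 of 4 pairs, and the median was -0.10 (-0.05 without pair 12n). The members are close copies of each other, so probes of 1 may bind RNA of another and the count is not one of 10 separate genes.

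The 12 probes with the smallest p among those of 1 sign in 4 pairs held 9 that were lower and 3 that were higher with progesterone. The first was LOC100038882, a locus symbol in place of a gene name, at 9.49, 9.11, 9.02 and 9.35 in the controls and 8.95, 8.84, 8.67 and 8.90 with progesterone. No progesterone sample reached the lowest control, and the difference was -0.40 (-0.55 to -0.26). The lower genes included Prr15 at -0.33, Ggta1 (a galactosyltransferase) at -0.34, Serpina1a (an alpha-1-antitrypsin) at -0.32, Ppp1r14d (an inhibitor of protein phosphatase 1) at -0.30, Fbp2 (a fructose bisphosphatase) at -0.28 and Ibtk at -0.27. Those higher were Lpl at 0.28, 2510009E07Rik at 0.27 and the probe of Hsp90ab1, and each of the 12 had an adjusted p of 0.948 from limma. By size, Uck1 (0.38), Emcn (endomucin of endothelium, 0.36), Antxr1 (0.34) and Mmp23 (0.34) joined the highest, and Tex2 (-0.36) and Akr1c12 (an aldo-keto reductase, -0.35) the lowest.

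**Figure D4:**
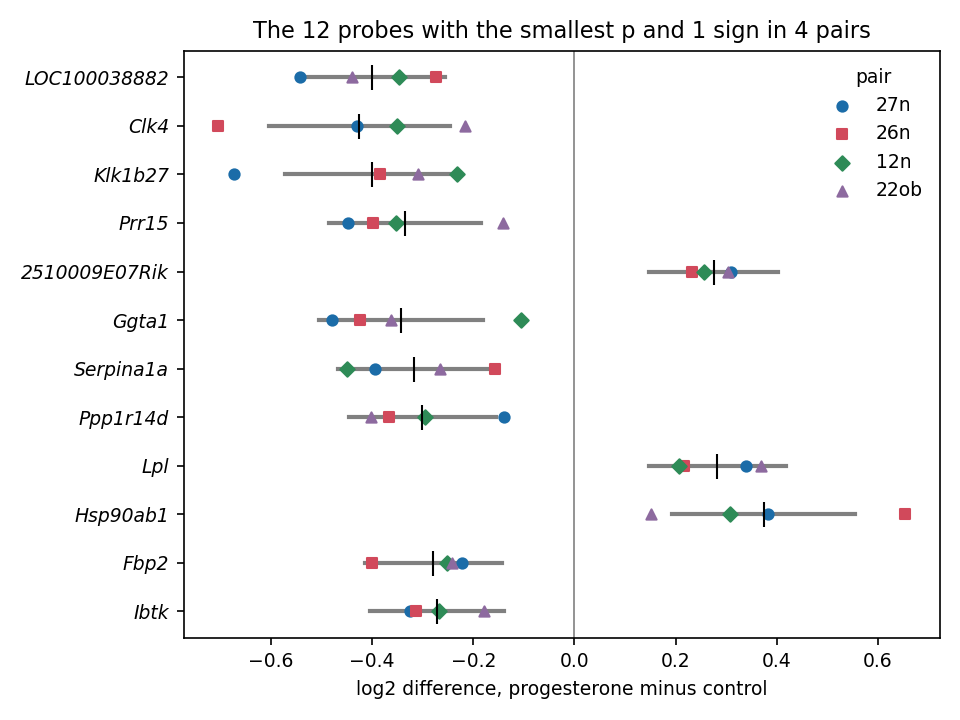
Log2 difference between progesterone and control (horizontal axis) for the 12 probes with the smallest p among those of 1 sign in 4 pairs, with a coloured point for each pair, a black bar for the mean and a grey line for the 95% interval. They were picked for lying away from 0, and each has an adjusted p of 0.948 from limma.

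In the 2 h samples, which are other samples, 6 of these 12 probes had the same sign of mean difference and 0 were called. LOC100038882 was at -0.03 there, Klk1b27 at -0.07, Lpl at -0.07 and the Hsp90ab1 probe at -0.17.

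Several of these genes have more than 1 tested probe, and the other probes lay nearer 0 than the one picked for its p or size. Their sign was the same for Klk1b27, Serpina1a, Antxr1, Tex2 and Hsp90ab1, opposite for Clk4 and mixed for Uck1. Clk4, a kinase that phosphorylates splicing factors, had 9.28, 8.99, 9.27 and 9.10 in the controls and 8.85, 8.29, 8.92 and 8.89 with progesterone on ILMN_2745251, lower by 0.43 (-0.60 to -0.25) with no overlap. Its brighter probe, ILMN_2851710, was higher by 0.12 (-0.14 to 0.39) and the third by 0.04 (-0.17 to 0.24). Of the 3 other tested probes of Uck1, none differed by more than 0.07, and the second probe of Serpina1a was lower by 0.09 and that of Tex2 by 0.10. The intervals of the probes of Klk1b27, Serpina1a, Antxr1 and Tex2 overlap each other, while those of the Clk4 probe and its 2 companions do not.

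**Figure D5:**
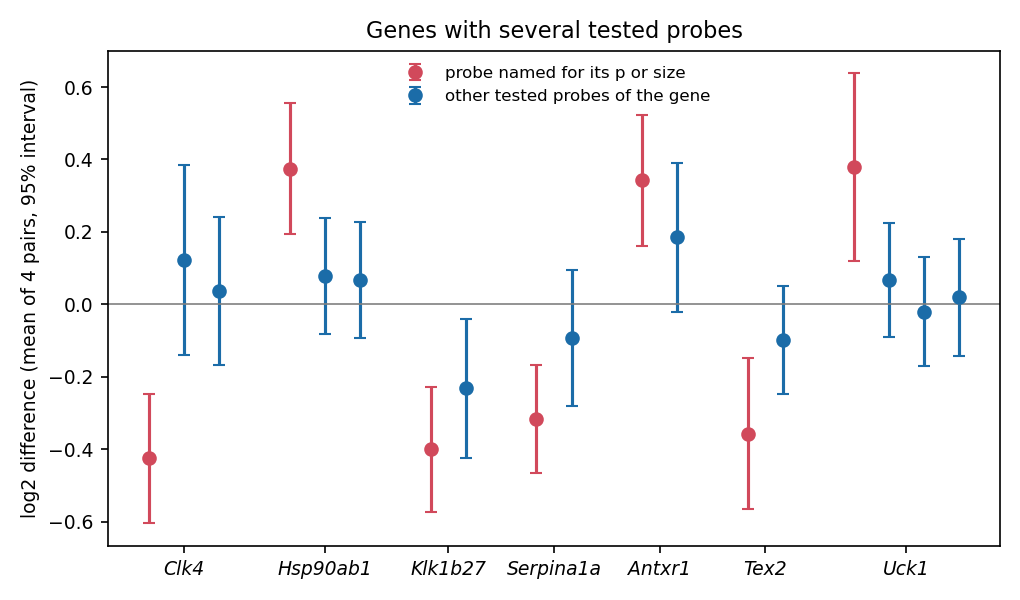
Log2 difference between progesterone and control at 20 min (vertical axis, mean of 4 pairs with its 95% interval) for each tested probe of 7 genes, the probe with the smallest p in red and the gene's other probes in blue. The red probes were chosen for their values, and the blue ones lie nearer 0 in each gene.

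In the related list of 22 splicing kinases and SR proteins, 0 were higher and 3 lower in 4 of 4 pairs, with a median of 0.004. Luc7l was lower by 0.20 and Sfrs9 by 0.20, Sfrs6 was higher by 0.22 in 3 of 4 pairs, and Clk1 differed by 0.08 (-0.08 to 0.24).

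Stress and inflammation were followed because the tubes had just been cut. Of 17 heat shock genes, each detected on all 8 arrays, 1 was higher and 0 lower in 4 of 4 pairs, with a median of 0.03, and Bag3, a co-chaperone, had the smallest p at -0.16. Of 21 inflammatory genes, 0 were higher and 3 lower in 4 of 4 pairs, with a median of -0.03, and Myd88, the adaptor of Toll-like receptors, differed by -0.18 (-0.35 to -0.01). Of 7 steroid metabolism genes tested out of 16, 0 were higher and 0 lower in 4 of 4 pairs.

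Tissue that the dissection may have left on the tube was followed with markers. Cfd, the adipocyte protease adipsin, had 7.65, 7.34, 7.38 and 7.08 in the controls and 9.11, 6.84, 7.27 and 6.90 with progesterone. The progesterone sample of 27n was above the other 7, and its 1.46 was the largest difference of any tested probe in any pair. Adipoq, adiponectin, was also highest in that sample, at 7.32 against 6.79 to 7.02, while Plin1, Fabp4, Lep, Cidec and Retn were detected on 0 of 8 arrays. Cidea, the brightest fat marker and the only one detected on all 8 arrays, went the other way in 27n, with 10.09 in the control and 10.02 with progesterone, and the median of the 5 markers tested was 0.01 in that pair. The summed signal of the 5 fat markers tested was 1380 to 1691 in the controls and 1503 to 1989 with progesterone, and their part in the other differences of pair 27n was not tested. Of 12 ovary markers, 0 were detected on all 8 arrays and 5 on 0. Between these, Zp3 was detected on 7 arrays, Gdf9 on 4, Inha on 3, and the remaining markers on 1 or 2. Serpinb11, a serpin, had the highest mean of all probes at 0.38, but with 0.15, 0.91, -0.42 and 0.90 in the pairs it had no single sign.

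The 11 genes that the study lists for 2 h give a scale for what a later response looked like. At 20 min their differences lay between -0.17 (Cxcl1) and 0.10 (Glrx), and the same probes at 2 h lay between 0.33 (Irak2) and 0.91 (Tigd2), in samples that the study used to choose them. By limma at 2 h only Arfl4 of these passed the threshold of 0.20 (adjusted p = 0.119). Tigd2 and Slc25a33 had an adjusted p of 0.244 from limma, and the others 0.780 or more. So 0 calls at 20 min does not by itself set these genes apart from 2 h. The test between times, over 16 arrays with the 8 pairs as blocks, called 1 of 16848 probes (0.00594%) by the same threshold. That was Arfl4, a small GTPase, at 8.25, 8.14, 8.03 and 8.24 in the controls of 20 min and 7.97, 8.18, 8.19 and 7.94 with progesterone. These overlap, with a difference of -0.10 (-0.29 to 0.10), and the effect of 2 h less that of 20 min was 0.98 (adjusted p = 0.147 from limma). Without pair 12n, 1 probe was called between times, and 0 were called without 27n, without 26n, without 22ob or with median centring in place of quantile normalization.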

How the data were processed

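The authors deposited, for 25697 probes on each of 16 arrays, the signal intensity summarized by GenomeStudio, without background subtraction or normalization, and a detection p-value, which ranks the probe among the chip's negative controls. From these, signal intensities were quantile-normalized over 16 arrays and put on the log2 scale, and 16848 probes (12465 gene symbols) were tested, those whose detection p-value was below 0.5 on 13 arrays or more. Progesterone and control of 20 min were compared with limma 3.58.1 (R 4.3.3; lmFit and eBayes, the pair as a block) at an adjusted p of at most 0.20, after the study's q-value of 20%. Paired SAM used all 16 sign changes. Arrays have no depth, so the number of pairs limits the precision. The pools are the replicates. With the pair as a block, p-values set the mean difference against the spread of the pair differences, moderated over probes. The methods give 1 tube of each mouse to either arm but also form a pool from the 6 tubes of 3 animals, which cannot both hold.

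The 29 lists (477 genes, 441 with a probe) and the genes named were chosen with earlier results of these data known. The genes named are the 12 smallest p and the 5 largest differences in each direction among probes of 1 sign in 4 pairs, the smallest p of each list, a fixed set (Pgr, Pgrmc1, Paqr7, Paqr8, Esr1, Nr3c1, Fos, Egr1, Jun, Nr4a1, Edn1, Ednra, Ptgs2, Foxj1, Ovgp1, Acta2, Myh11, Clk1, Clk4 and the study's 11 genes of 2 h), the 5 widest spreads between pairs and the 5 smallest p between times; any other gene was named after its value was seen. The brightest probe stood for a gene. Probes carry the symbols that came with the deposited signals. The pairs come from the methods and the shared codes. Deviations from the group means correlated at 0.350 to 0.550 for the same code and at -0.456 to 0.225 for different codes. Within each arm the deviations sum to 0, so positive values for the same code push those for different codes down. The median signal intensity of the 8 arrays was 116.5 to 160.5, and 13381 to 14267 probes were detected. Alternatives were other normalizations, a normexp background correction, other filters, no pair block, all 16 arrays in 1 fit, an intensity trend, array weights, paired SAM and leaving out each pair. Scripts were tested on simulated data.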

Additional observations from a re-analysis of the deposited data

Results flagged for a closer look

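Among the 150 groups of 4 samples examined for the named genes, 5 had 1 sample that stood apart, and by chance about 1 group in 20 would. With progesterone, Clk4 (ILMN_2745251) had a log2 signal of 8.29 in pair 26n, below 8.85 to 8.92 in the others. 2510009E07Rik had 9.19 in pair 12n, below 9.86 to 9.96, and its control in that pair was low as well. Gdf9, an oocyte gene that was detected on 4 of the 8 arrays, had 7.16 in pair 26n, above 6.89 to 6.93. In the controls, Uck1 had 8.20 in pair 26n, below 8.45 to 8.49, and Clk1 had 9.21 in pair 12n, above 8.86 to 8.92. Of these 5 values, 3 belong to pair 26n, and of those Clk4 and Uck1 were named for the size of their differences.

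The effect of progesterone on Arfl4 was larger at 2 h than at 20 min by 0.98 on the log2 scale (adjusted p = 0.147 from limma's test of the difference between times). The study had chosen Arfl4 from the same 2 h samples, and the call was lost under several of the alternatives below.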

How the results depend on the processing

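The count of 0 called probes at 20 min held under 14 of 16 alternatives, among them no replicate block, where the pair was left out of the model (0). Paired SAM called 1 probe on log2 values and 2 on linear signals, the latter chosen after seeing the data. The probe between times, called in 1 case, was lost (0) with median centring without quantile normalization, with no filter on dim probes and with no replicate block; 3 probes were called with an intensity trend and robust prior and 2 with array weights. Leaving out each 20 min pair in turn gave 0 to 1, and 0 without 27n, 26n or 22ob. The count of probes whose 95% interval at 20 min lies within 0.5 log2 units of 0, a measure chosen after seeing the data, was 25655 of 25697 with no filter, since more probes were tested, 13666 after normexp and 16261 with no replicate block for the pair. Named genes were counted as kept in 1031 comparisons and not in 12, of which 8 came with normexp. For most of them, kept meant a value within the spread between pairs. The filters, the missing pair block, the fit over 16 arrays and the intensity trend cannot change a probe's mean difference. Leaving out a pair cannot move it beyond that spread. Under these settings such genes were therefore kept by construction, and only the other settings could move them. For probes named for the smallest p or largest differences, it meant only that the sign did not reverse and the probe stayed uncalled. The size of their differences was not checked. These probes were picked for the same sign in each pair, so leaving out a pair could not reverse it. List medians were kept in 388 comparisons and not in 18, and they could not change with no pair block or with the fit over 16 arrays. Signals near background limit what could be seen for dim probes.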
